A study of Homo sapiens with 8 samples.

Results

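Replication-dependent histone genes are the protein-coding genes whose GENCODE v29 symbol starts with HIST1H, HIST2H, HIST3H or HIST4H. The annotation holds 71 of them, and 60 were among the 31721 genes of the deposited expression table. They were followed in polyadenylated RNA of A2780, an established cell line from a human ovarian carcinoma. The cells had received olaparib, palbociclib, olaparib together with palbociclib (the combination), or DMSO, the solvent control, in each case for 24 hours. Olaparib inhibits the poly(ADP-ribose) polymerases that repair DNA strand breaks. Palbociclib blocks CDK4 and CDK6, the cyclin D partners that drive cells from G1 into S phase. Each of the 4 groups had 2 libraries, described as biological repeats. Nothing says that the 2 came from separate cultures, so the p-values measure the spread between these libraries, which may be technical. All libraries come from a single line, and the sources used here give no doses.

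Histones H2A, H2B, H3 and H4 form the protein core around which DNA is wound, and H1 binds the linker between cores. The replication-dependent genes supply most of this protein while DNA is copied. Their mRNA normally ends in a conserved stem-loop bound by SLBP in place of a poly(A) tail, and it is made in S phase and degraded when replication stops. Many of these genes can also give polyadenylated transcripts that run past the stem-loop, and such transcripts are known from non-dividing and differentiating cells. Only polyadenylated RNA was selected here, so the values below do not measure the main pool of histone mRNA. Whether RNA without a tail was carried through the selection was not examined. Reads in the coding sequence, which both forms share, do not tell them apart.

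The stem-loop could be found in the annotated sequence of 31 of the 36 members that have an annotated 3′UTR. The other 35 members, 24 of them in the table, are annotated with coding sequence alone at the 3′ end. The search looked downstream of the stop codon for a stem of 6 base pairs, G-U pairs allowed, that starts with GG and ends with CC. It had to close a loop of 4 bases that starts with TT and holds at least 3 T, with an A directly after it. By the same search, 20 of 19851 other protein-coding genes (0.101%) held a match. There were 5 different 16-base stem-loops, of which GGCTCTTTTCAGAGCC was found in 17 members. The sites below belong to the 10 members that have a stem-loop and were abundant enough to be tested, because they mark where the usual mRNA of these genes ends. They are given 5′ to 3′ as DNA on GRCh38, with the stem-loop in capitals.
HIST1H2AC, chr6:26124664-26124689, plus strand: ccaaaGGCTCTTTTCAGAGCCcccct
HIST1H3H, chr6:27810511-27810536, plus strand: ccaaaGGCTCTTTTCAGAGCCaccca
HIST2H2BE, chr1:149886183-149886208, minus strand: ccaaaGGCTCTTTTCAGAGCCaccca
HIST3H2A, chr1:228457364-228457389, minus strand: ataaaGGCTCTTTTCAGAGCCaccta
HIST1H2BH, chr6:26252050-26252075, plus strand: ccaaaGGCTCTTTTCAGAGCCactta
HIST1H2BD, chr6:26158582-26158607, plus strand: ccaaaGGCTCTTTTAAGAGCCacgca
HIST1H2BC, chr6:26123467-26123492, minus strand: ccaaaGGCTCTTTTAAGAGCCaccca
HIST1H2AG, chr6:27133510-27133535, plus strand: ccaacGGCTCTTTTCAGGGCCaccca
HIST1H4I, chr6:27139649-27139674, plus strand: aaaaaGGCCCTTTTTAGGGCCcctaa
HIST1H4H, chr6:26285126-26285151, minus strand: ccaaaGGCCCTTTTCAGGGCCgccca
The first 5 share their stem-loop. HIST1H2BD and HIST1H2BC differ from them in the loop and share theirs with each other. HIST1H2AG and the H4 genes differ in the stem, and HIST1H4I in the loop as well. For 22 members, 9 of them tested, an annotated transcript continued for more than 100 bases past the stem-loop.

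In the poly(A)-selected RNA, histone transcripts were scarce and unevenly spread over the family. Levels are given in FPKM, fragments scaled by exon length and by library. Of the 60 members, 13 averaged at least 1 FPKM over the 8 libraries, the minimum for testing, and 47 did not. A mean under 0.5 FPKM was found for 37 members and under 0.1 FPKM for 13, and 36 had reads in every library. HIST1H2BK, an H2B gene, led with a mean of 39.6 FPKM. HIST1H1C, which encodes the linker histone H1.2, followed with 22.1 FPKM and HIST1H4I, an H4 gene, with 8.44 FPKM. At the edge of the filter, HIST1H2BH was just inside at 1.03 FPKM and HIST1H2BG just outside at 0.981 FPKM. The expression of the other 11 annotated members was not analysed here.

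**Figure D1:**
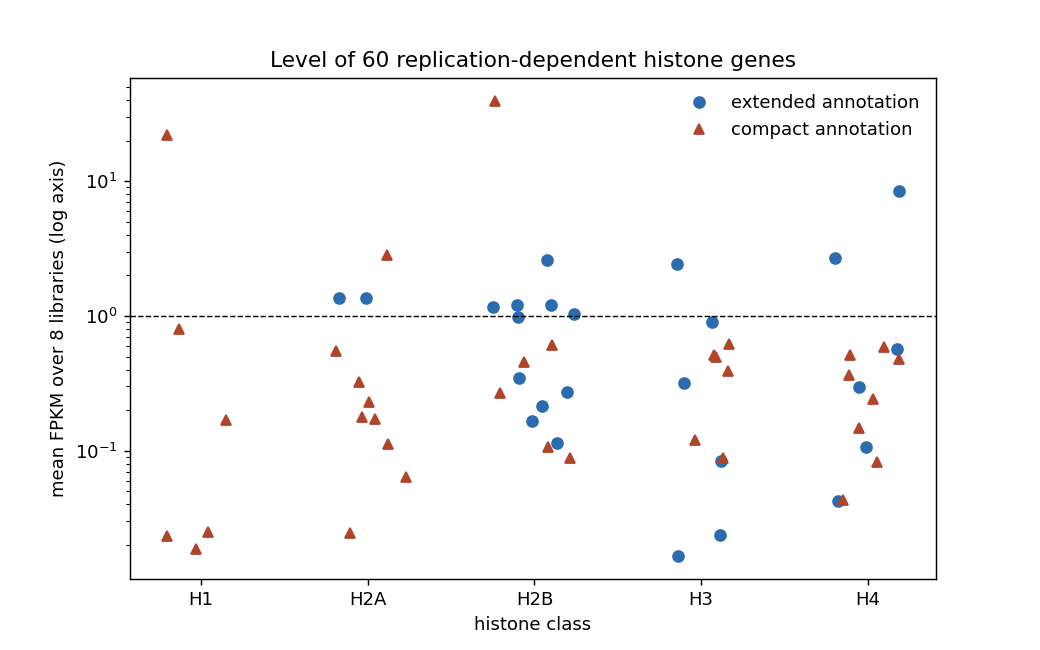
Mean FPKM over the 8 libraries (log axis) of the 60 replication-dependent histone genes, by histone class; circles are genes with an extended annotation, triangles genes with a compact one, and the dashed line is the minimum of 1 FPKM for testing. Of the genes, 13 lie above the line, led by the H2B gene HIST1H2BK at 39.6 FPKM and the H1 gene HIST1H1C at 22.1 FPKM.

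The tested members came from every class, in unequal numbers. Among the members in the table, 1 of 6 H1 genes, 3 of 11 H2A genes, 6 of 17 H2B genes, 1 of 12 H3 genes and 2 of 14 H4 genes passed. The large cluster on chromosome 6 gave 11 of its 45 listed members and chromosome 1 gave 2 of 14, while the single member on chromosome 12, HIST4H4, did not pass. An annotation was called extended where a transcript had at least 2 exons or at least 1000 bases. Of 25 extended members 10 were tested, and of 35 compact members 3. The leading genes HIST1H2BK and HIST1H1C are compact, with gene models of 381 and 642 bases that hold coding sequence and no UTR, so reads beyond the coding sequence are not in their values.

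In the summed level of all 60 members, palbociclib and the combination stood above olaparib and DMSO. The sum was 77.8 ± 4.15 FPKM with olaparib, 126 ± 4.67 FPKM with palbociclib, 130 ± 3.82 FPKM with the combination and 71.8 ± 4.91 FPKM with DMSO (SD, n = 2 each). Relative to DMSO the sum was 1.08 times as high under olaparib, 1.76 times under palbociclib and 1.81 times under both drugs. Without HIST1H2BK, the ratios to DMSO were 1.14, 1.51 and 1.58 in the same order. In the H2B class the ratio was 2.12 with palbociclib and 2.18 with the combination, and in the H1 class 1.45 and 1.35. It was 1.58 and 1.88 for H2A, 1.64 and 1.65 for H3, and 1.38 and 1.56 for H4. The H2B and H1 ratios rest largely on 1 gene each. HIST1H2BK held 24.6 of 32 FPKM of the H2B sum with DMSO and 54.8 of 67.7 FPKM with palbociclib. HIST1H1C held 18.2 of 19.1 FPKM of the H1 sum with DMSO and 26.4 of 27.7 FPKM with palbociclib. HIST1H2BK alone made up 29.7% to 31.8% of the summed FPKM in the olaparib libraries, 41.2% to 43.7% in the palbociclib and combination libraries, and 32.8% to 35.6% in the DMSO libraries. In RNA from whole cultures, more cells of a given kind and more RNA per cell cannot be told apart.

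With palbociclib, 8 tested histone genes rose against DMSO in the poly(A)-selected RNA, 1 fell and 4 did not pass the threshold. The threshold was an adjusted p under 0.05 in limma across 12443 genes. Among all tested genes 18.7% were called higher and 31.4% lower. Both palbociclib libraries lay above both DMSO libraries for 11 of the 13 and below for 2, against 32.5% and 46.3% of all tested genes. The members' fold changes had a median of 0.51 on the log2(FPKM + 1) scale, against −0.05 for all tested genes. This scale understates the change of weakly expressed genes. A mean over all 8 libraries lets in genes that are high in treated cells alone, and 5 of the 13 were under 1 FPKM in DMSO. Among the 8 with at least 1 FPKM in DMSO, 5 were higher, 1 was lower and 2 were not called with palbociclib.

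**Figure D2:**
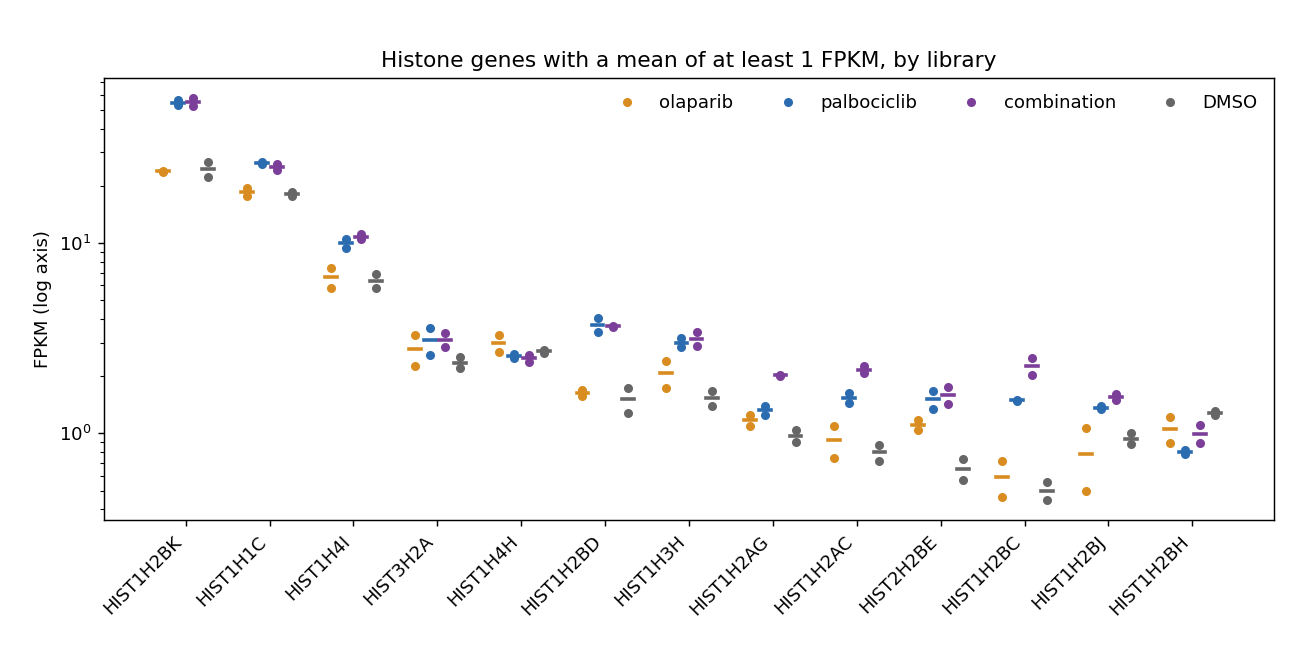
FPKM (log axis) of the 13 tested histone genes in each library, with points for the 2 libraries of a group and a short line at their mean, in the order olaparib, palbociclib, combination, DMSO. For HIST1H2BK the palbociclib and combination libraries sit between 52.4 and 57.9 FPKM, above the olaparib and DMSO libraries, which lie between 22.4 and 26.8 FPKM.

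HIST1H2BK (ENSG00000197903, chr6:27146418-27146798, minus strand) rose in both treatments with palbociclib. It had 23.8 and 24.0 FPKM with olaparib, 53.2 and 56.3 FPKM with palbociclib, 57.9 and 52.4 FPKM with the combination, and 26.8 and 22.4 FPKM with DMSO. All palbociclib and combination libraries lay above all others, and olaparib overlapped DMSO. The log2 fold change was 1.13 ± 0.08 with palbociclib (SE, limma adjusted p = 9.55e-05) and 1.14 ± 0.08 with the combination (adjusted p = 5.39e-05). Of its 50-base stretches, 74.1% also occur in another gene, and 61.4% occur in H2BFS, an H2B-like gene on chromosome 21 that was listed at 0 to 0.198 FPKM. The sources used here do not say how reads that match both genes were counted, so the level is uncertain.

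HIST1H1C (ENSG00000187837, chr6:26055787-26056428, minus strand) shares no 50-base stretch with another gene. It had 17.7 and 19.6 FPKM with olaparib, 26.8 and 26.0 FPKM with palbociclib, 24.1 and 26.2 FPKM with the combination, and 18.6 and 17.7 FPKM with DMSO. The groups again separated by palbociclib, with a log2 fold change of 0.51 ± 0.06 for palbociclib (SE, limma adjusted p = 0.000543) and 0.45 ± 0.06 for the combination (adjusted p = 0.0007).

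Of the H4 genes, HIST1H4I rose and HIST1H4H was not called, and both encode the core histone H4. HIST1H4I (ENSG00000276180, chr6:27138588-27139881, plus strand) had 7.40 and 5.80 FPKM with olaparib, 10.6 and 9.45 FPKM with palbociclib, 11.2 and 10.5 FPKM with the combination, and 6.89 and 5.81 FPKM with DMSO. Its log2 fold change was 0.58 ± 0.11 with palbociclib (SE, limma adjusted p = 0.00494) and 0.69 ± 0.11 with the combination (adjusted p = 0.00186). HIST1H4H (ENSG00000158406, chr6:26277609-26285638, minus strand) had 3.30 and 2.67 FPKM with olaparib, 2.61 and 2.48 FPKM with palbociclib, 2.37 and 2.60 FPKM with the combination, and 2.74 and 2.65 FPKM with DMSO. Its palbociclib and combination libraries lay below the DMSO libraries by a small margin, with log2 fold changes of −0.06 ± 0.08 and −0.09 ± 0.08 (limma adjusted p = 0.591 and 0.412). The difference between the responses of these genes was not tested.

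The other H2B genes moved in both directions. HIST1H2BD (ENSG00000158373, chr6:26158146-26171349, plus strand) had 1.57 and 1.69 FPKM with olaparib, 3.40 and 4.03 FPKM with palbociclib, 3.67 and 3.62 FPKM with the combination, and 1.73 and 1.28 FPKM with DMSO. Its log2 fold change was 0.91 ± 0.10 with palbociclib (SE, limma adjusted p = 0.000441) and 0.90 ± 0.10 with the combination (adjusted p = 0.000328). No palbociclib or combination library overlapped DMSO for this gene. HIST1H2BC (ENSG00000180596, chr6:26114873-26123926, minus strand) had 0.461 and 0.715 FPKM with olaparib, 1.48 and 1.504 FPKM with palbociclib, 2.03 and 2.49 FPKM with the combination, and 0.553 and 0.447 FPKM with DMSO. These levels rest on 27 and 40 reads with palbociclib, 37 and 54 with the combination, and 15 and 11 with DMSO. The log2 fold change was 0.73 ± 0.12 with palbociclib (limma adjusted p = 0.00217) and 1.12 ± 0.12 with the combination (adjusted p = 0.000233). On recovered reads, with no FPKM added, limma with voom gave 1.55 and 2.14 for HIST1H2BC, and 1.16 and 1.16 for HIST1H2BK.

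HIST2H2BE (ENSG00000184678, chr1:149884459-149886652, minus strand) is an H2B gene of the chromosome 1 cluster. It had 1.17 and 1.04 FPKM with olaparib, 1.67 and 1.35 FPKM with palbociclib, 1.44 and 1.75 FPKM with the combination, and 0.572 and 0.734 FPKM with DMSO. All treated libraries lay above DMSO, olaparib included. The log2 fold change was 0.60 ± 0.11 with palbociclib and 0.65 ± 0.11 with the combination (SE, limma adjusted p = 0.00424 and 0.00235). With olaparib it was 0.35 ± 0.11 and missed the threshold (adjusted p = 0.0804).

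HIST1H2BH (ENSG00000275713, chr6:26251651-26253710, plus strand) was the only tested member called lower, and with palbociclib alone. It had 1.22 and 0.885 FPKM with olaparib, 0.818 and 0.776 FPKM with palbociclib, 0.887 and 1.10 FPKM with the combination, and 1.25 and 1.32 FPKM with DMSO. The log2 fold change with palbociclib was −0.35 ± 0.11 (SE, limma adjusted p = 0.0392). With the combination it was −0.20 ± 0.11 (adjusted p = 0.176). The palbociclib call was lost when any of the palbociclib or DMSO libraries was left out, and under 4 other settings.

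HIST1H2BJ (ENSG00000124635, chr6:27125897-27132750, minus strand) was not called against DMSO on the log2(FPKM + 1) scale. It had 0.495 and 1.07 FPKM with olaparib, 1.34 and 1.39 FPKM with palbociclib, 1.49 and 1.62 FPKM with the combination, and 0.874 and 0.998 FPKM with DMSO. The olaparib libraries differed from each other by more than the other pairs did, and rest on 11 and 29 reads. The log2 fold change was 0.29 ± 0.15 with palbociclib and 0.40 ± 0.15 with the combination (limma adjusted p = 0.154 and 0.0578). On recovered reads with a mean of at least 10, limma with voom called it higher with the combination (0.74 ± 0.31, adjusted p = 0.0486). There 24.1% of all genes so tested were higher. With palbociclib the same test did not call it (0.55 ± 0.31, adjusted p = 0.149).

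Among the H2A and H3 genes, HIST1H2AC and HIST1H3H rose with palbociclib and with the combination, and HIST1H2AG with the combination. HIST1H3H (ENSG00000278828, chr6:27810064-27811300, plus strand) had 1.73 and 2.41 FPKM with olaparib, 3.17 and 2.84 FPKM with palbociclib, 3.40 and 2.89 FPKM with the combination, and 1.67 and 1.40 FPKM with DMSO. Its log2 fold change was 0.66 ± 0.12 with palbociclib (SE, limma adjusted p = 0.00403) and 0.71 ± 0.12 with the combination (adjusted p = 0.00228). HIST1H2AC (ENSG00000180573, chr6:26124145-26139116, plus strand) had 0.743 and 1.09 FPKM with olaparib, 1.45 and 1.64 FPKM with palbociclib, 2.25 and 2.08 FPKM with the combination, and 0.719 and 0.873 FPKM with DMSO. Palbociclib and combination libraries lay above DMSO, with a log2 fold change of 0.50 ± 0.11 for palbociclib (adjusted p = 0.00916) and 0.82 ± 0.11 for the combination (adjusted p = 0.000791). The palbociclib call was lost without DMSO replicate 1 and without palbociclib replicate 2, where the adjusted p reached 0.0584 at most.

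HIST1H2AG (ENSG00000196787, chr6:27133042-27135291, plus strand) had 1.25 and 1.09 FPKM with olaparib, 1.40 and 1.25 FPKM with palbociclib, 2.03 and 2.00 FPKM with the combination, and 1.04 and 0.903 FPKM with DMSO. All treated libraries lay above DMSO. The log2 fold change was 0.24 ± 0.09 with palbociclib, which missed the threshold (limma adjusted p = 0.0544), and 0.61 ± 0.09 with the combination (adjusted p = 0.000838). HIST3H2A (ENSG00000181218, chr1:228456979-228457873, minus strand) had 3.30 and 2.27 FPKM with olaparib, 3.56 and 2.59 FPKM with palbociclib, 2.86 and 3.35 FPKM with the combination, and 2.51 and 2.19 FPKM with DMSO. The palbociclib and combination libraries lay above DMSO, but the spread within groups was wide and neither difference passed (log2 fold changes of 0.27 ± 0.16 and 0.29 ± 0.16, limma adjusted p = 0.193 and 0.159).

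**Figure D3:**
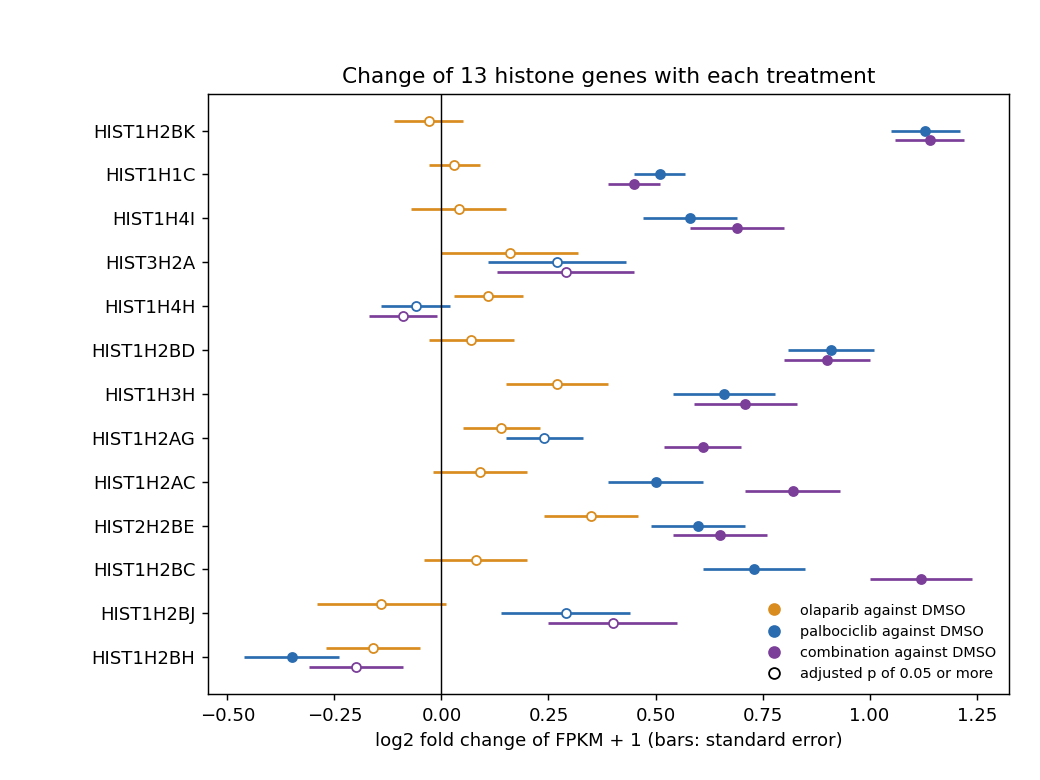
log2 fold change of FPKM + 1 against DMSO (horizontal axis, bars are standard errors from limma) of the 13 tested histone genes with olaparib, palbociclib and the combination; filled points have an adjusted p under 0.05. Palbociclib has 8 filled points right of 0 and 1 left of it, the combination 9 right of 0, and olaparib none.

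The combination raised 9 tested members against DMSO and lowered none, where 21.5% of all tested genes were called higher and 35.3% lower. Both combination libraries lay above both DMSO libraries for 11 members and below for 2, against 32.5% and 46.9% of all tested genes. The median log2 fold change of the 13 was 0.65, against −0.06 for all tested genes. Of the 8 members with at least 1 FPKM in DMSO, 5 were higher. Against olaparib, the combination had 9 members higher and none lower, with 17% of all genes called higher and 27.4% lower. Among them were HIST1H2BK (log2 fold change 1.17 ± 0.08, SE, limma adjusted p = 0.000128), HIST1H2BC (1.04 ± 0.12, adjusted p = 0.000668) and HIST1H2BD (0.82 ± 0.10, adjusted p = 0.000958), all on the log2(FPKM + 1) scale. HIST1H2BJ was called here (0.54 ± 0.15, adjusted p = 0.0257), but not under 6 of 19 alternatives, those without either combination library or olaparib replicate 1, without a filter, with quantile normalisation, or with only the compared groups in the fit. HIST1H3H (0.44 ± 0.12, adjusted p = 0.0251) was not called under 5 of the 19, those without olaparib replicate 1, without combination replicate 1, without a filter, at a minimum of 0.1 FPKM, or with only the compared groups in the fit. The comparisons share control libraries, so they do not count as separate evidence.

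With olaparib, limma called none of the 13 members, while 4.13% of all tested genes were called higher and 10.5% lower. These shares, 514 and 1307 genes, rest on every library compared, with 13 higher and 0 lower without DMSO replicate 1, 22 and 6 without DMSO replicate 2, 132 and 136 without olaparib replicate 1, and 23 and 10 without olaparib replicate 2. The log2 fold changes ran from −0.16 in HIST1H2BH to 0.35 in HIST2H2BE, with a median of 0.08. An unadjusted limma p under 0.05 was reached by HIST2H2BE alone. Both olaparib libraries lay above both DMSO libraries for 3 members and below for 1, as they did for 23.3% and 38.6% of all tested genes. limma on the reads recovered from the FPKM values, weighted by voom, called HIST2H2BE higher, beside 1074 of all 12443 tested genes.

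Between the combination and palbociclib, limma called no tested member, in a comparison where 0.00804% of all genes were called higher and 0.0161% lower. Unadjusted limma p-values under 0.05 went to HIST1H2AG, HIST1H2BC and HIST1H2AC. HIST1H2AG was 0.38 ± 0.09 higher on the log2 scale with the combination (SE, limma adjusted p = 0.149), HIST1H2BC 0.38 ± 0.12 (adjusted p = 0.204) and HIST1H2AC 0.31 ± 0.11 (adjusted p = 0.241). For these genes both combination libraries lay above both palbociclib libraries, but they were picked by their p in the same comparison. The share of all genes with such an order was not counted. The departure from additivity, the olaparib effect with palbociclib minus that without it, was called for no member by limma. Of all genes, 0.00804% were called negative and none positive. Its values ran from −0.30 to 0.31 (log2) over the 13 members, and none had an unadjusted p under 0.05.

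The 47 members below 1 FPKM were counted by the order of their libraries. Both treated libraries lay above both DMSO libraries for 18 members with olaparib, 16 with palbociclib and 24 with the combination, and below for 2 in each case. Of all 19278 genes below the filter, 18.9%, 24.6% and 25.8% lay above DMSO in the same order, beside 38.3%, 34% and 51.1% of the members. For lying below DMSO the shares of all genes were 10.5%, 10.7% and 10.9%, beside 4.26% of the members each time. Some of these orders rest on single reads, and a read was worth more FPKM in most treated libraries than in DMSO. HIST1H2AB had 1 read in olaparib replicate 2 and 1 in DMSO replicate 2, yet its 0.0892 FPKM ranked above 0.0862 FPKM. The order of libraries alone thus does not show a rise, for members or for all genes. In a test on recovered reads with a mean of at least 10, a setting chosen after the data had been seen, 22 members could be tested with limma and voom. There HIST1H2BG, HIST1H3E, HIST1H2BN and HIST4H4 were called higher with palbociclib and with the combination, and HIST1H3G with the combination, where 21.2% and 24.1% of all genes so tested were higher with these treatments. HIST1H2BG, an H2B gene, had 0.752 and 0.686 FPKM with olaparib, 1.13 and 1.10 FPKM with palbociclib, 1.55 and 1.55 FPKM with the combination, and 0.481 and 0.596 FPKM with DMSO. HIST1H3E, an H3 gene, had 0.654 and 0.929 FPKM with olaparib, 1.11 and 1.07 FPKM with palbociclib, 1.23 and 1.34 FPKM with the combination, and 0.322 and 0.632 FPKM with DMSO. Both genes were lowest in the DMSO libraries and highest in the combination libraries. With olaparib, the same test called HIST2H2BE, HIST1H3E and HIST4H4 higher, where 6.9% of its genes were.

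Compact members below the filter could differ widely between the libraries of a group. HIST1H1E, which encodes the linker histone H1.4, had 0.454 and 1.35 FPKM with olaparib, 0.544 and 1.62 FPKM with palbociclib, 0.545 and 0.153 FPKM with the combination, and 0.816 and 0.898 FPKM with DMSO. HIST1H4C had 0 and 1.29 FPKM with olaparib, 0.105 and 0.505 FPKM with palbociclib, 0.945 and 0.972 FPKM with the combination, and 0.636 and 0.234 FPKM with DMSO. The combination libraries lay above DMSO for HIST1H4C and below DMSO for HIST1H1E, and the other treatments overlapped DMSO for both genes. HIST1H4C rests on 0 and 16 reads with olaparib, 1 and 7 with palbociclib, 9 and 11 with the combination, and 9 and 3 with DMSO. The summed FPKM of all 47 members below the filter also differed within groups. It was 10.73 and 16.45 with olaparib, 11.42 and 17.8 with palbociclib, 17.04 and 14.64 with the combination, and 9.29 and 9.62 with DMSO. The cause was not tested. Of all 71 members, 16 share over 50% of their 50-base stretches with another gene, among them HIST1H2BK and the near-identical pairs HIST2H2AA3 with HIST2H2AA4 and HIST2H4A with HIST2H4B. Of the 16, 11 are in the table and their levels are uncertain. Pseudogenes with histone symbols, 19 in number, were not counted as members.

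Many H2A and H2B genes lie head to head and share the stretch between their starts, but the partners were not equally abundant. HIST1H2BC and HIST1H2AC, whose annotated starts are 219 bases apart, averaged 1.21 and 1.35 FPKM and both rose with palbociclib. HIST1H2BJ and HIST1H2AG, 292 bases apart, averaged 1.16 and 1.37 FPKM. HIST1H2BK and HIST1H2AH are 331 bases apart and averaged 39.6 and 0.0633 FPKM. HIST2H2BE and HIST2H2AC, 323 bases apart, averaged 1.22 and 0.321 FPKM. HIST3H2A and HIST3H2BB, 234 bases apart, averaged 2.83 and 0.272 FPKM. Partners thus had similar levels in some of these pairs and very unequal levels in others.

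RefSeq promoter windows, 250 bases before to 50 after a start on GRCh38.p14, were matched for 61 members, including all 13 tested. The octamer ATTTGCAT, a known element of H2B promoters, was found on either strand in 42.6% of the members' windows and in 1.8% of 27305 windows of all genes. It was in 11 of 14 H2A, 14 of 18 H2B and 1 of 10 H3 windows, and in no H1 or H4 window. The H3 window is that of HIST1H3D, for which RefSeq gives the same window as for HIST1H2AD. Windows of head-to-head partners can overlap, as for HIST1H2BC and HIST1H2AC, so the same octamer can count in both classes. CCAAT was found in 83.6% of members against 35.7% of all windows, but in 3 of 13 H4 windows. TATAAA was found in 65.6% against 12%, and TATATA, which can overlap it, in 26.2% against 4.25%. The windows below are the most abundant H2B gene, the most abundant H1 gene, the H2B gene that shares its upstream stretch with HIST1H2AC, and the H2B gene called lower with palbociclib. Capitals mark these motifs on either strand.
HIST1H2BK, chr6:27146809-27147108, minus strand: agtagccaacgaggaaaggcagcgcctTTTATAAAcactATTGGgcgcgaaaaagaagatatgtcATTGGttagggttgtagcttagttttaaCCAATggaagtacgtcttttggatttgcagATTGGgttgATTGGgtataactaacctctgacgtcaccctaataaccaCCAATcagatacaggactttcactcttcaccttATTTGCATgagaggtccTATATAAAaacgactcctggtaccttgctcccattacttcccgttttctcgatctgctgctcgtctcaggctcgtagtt
HIST1H1C, chr6:26056421-26056720, minus strand: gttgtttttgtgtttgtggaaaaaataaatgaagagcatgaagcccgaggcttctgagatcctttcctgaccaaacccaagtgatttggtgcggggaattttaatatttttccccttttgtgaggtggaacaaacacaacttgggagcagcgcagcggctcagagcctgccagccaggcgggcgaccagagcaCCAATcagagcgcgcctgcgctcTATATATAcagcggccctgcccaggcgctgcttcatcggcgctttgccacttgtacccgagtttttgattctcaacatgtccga
HIST1H2BC, chr6:26123877-26124176, minus strand: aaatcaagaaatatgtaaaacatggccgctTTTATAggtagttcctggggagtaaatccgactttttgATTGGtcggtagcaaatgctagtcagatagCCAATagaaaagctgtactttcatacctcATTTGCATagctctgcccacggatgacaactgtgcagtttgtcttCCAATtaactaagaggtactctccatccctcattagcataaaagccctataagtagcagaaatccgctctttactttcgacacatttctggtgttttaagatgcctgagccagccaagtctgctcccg
HIST1H2BH, chr6:26251364-26251663, plus strand: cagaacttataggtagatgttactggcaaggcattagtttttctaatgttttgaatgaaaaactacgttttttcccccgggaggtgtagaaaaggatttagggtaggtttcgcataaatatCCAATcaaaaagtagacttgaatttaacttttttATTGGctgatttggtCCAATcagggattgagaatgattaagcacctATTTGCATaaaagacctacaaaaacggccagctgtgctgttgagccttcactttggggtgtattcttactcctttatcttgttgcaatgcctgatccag
The octamer is present in the windows of HIST1H2BK and HIST1H2BC, which rose, and also in that of HIST1H2BH. HIST1H2BH was called lower with palbociclib, a call lost under 8 of 19 alternatives. Among the other H2B genes that rose with palbociclib, HIST2H2BE holds the octamer and HIST1H2BD does not. A relation between the octamer and the response was not tested. HIST1H1C holds CCAAT and TATATA and no octamer. A match describes the letters and shows no binding.

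Factors that make and handle histone mRNA were mostly called lower with palbociclib. NPAT, the activator of histone gene transcription in S phase, had 3.40 and 3.20 FPKM with olaparib, 3.54 and 3.26 FPKM with palbociclib, 3.49 and 3.29 FPKM with the combination, and 4.05 and 3.99 FPKM with DMSO. All treated libraries lay below DMSO, and each treatment lowered it (log2 fold changes of −0.22, −0.19 and −0.19, SE 0.06 each, limma adjusted p = 0.0423, 0.0267 and 0.0217). In TPM, values rescaled to equal totals, none of the NPAT differences was called (adjusted p of 0.111 to 0.285). With quantile normalisation the olaparib difference was not called (limma adjusted p = 0.0514), and those of palbociclib and the combination were (0.0148 and 0.00807). The olaparib call was lost without any olaparib, palbociclib or DMSO library (adjusted p up to 0.175), the palbociclib call without either DMSO library or palbociclib replicate 2 (up to 0.139), and the combination call without either DMSO library or combination replicate 2 (up to 0.0983). SLBP, the stem-loop binding protein, had 73.9 and 75.4 FPKM with olaparib, 59.0 and 54.8 FPKM with palbociclib, 51.4 and 51.9 FPKM with the combination, and 85.4 and 86.5 FPKM with DMSO. Its log2 fold changes were −0.20, −0.59 and −0.72 in the same order (SE 0.04 each, limma adjusted p = 0.0271, 8.27e-05 and 2.37e-05). The olaparib call was lost when any olaparib or DMSO library was left out (log2 fold changes of −0.21 to −0.19). It was also lost in TPM (limma adjusted p = 0.0647) and with quantile normalisation (−0.09, limma adjusted p = 0.178). CASP8AP2, a component of histone locus bodies, fell by 0.40 on the log2 scale with palbociclib and by 0.38 with the combination (limma adjusted p = 0.00108 and 0.000941). With olaparib its change was −0.07 (adjusted p = 0.427).

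In the list of 23 histone mRNA factors, palbociclib lowered 17 and raised 1, MIF4GD, which binds SLBP, where 31.4% of all tested genes were lower and 18.7% higher. The list's median log2 fold change was −0.32. In TPM 14 were lower and 4 higher, beside 2691 and 3437 of all 12443 tested genes. With quantile normalisation 15 were lower and 3 higher, beside 3136 and 2728 of all tested genes. CSTF2, a cleavage factor that acts on polyadenylated and histone pre-mRNA, fell by 0.70 on the log2 scale (limma adjusted p = 3.12e-05). CCNE2, which encodes a cyclin E, and CDK2, the kinase that phosphorylates NPAT with cyclin E, fell by 0.64 and 0.61 (limma adjusted p = 0.000982 and 0.000351). CCNE1, the other cyclin E gene of the list and named after its values were seen, was the more abundant. With DMSO it had 28 and 27.5 FPKM, against 2.08 and 2.33 FPKM for CCNE2. CCNE1 was not called with palbociclib, at 0.01 ± 0.05 (limma adjusted p = 0.891).

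The 42 DNA replication genes, whose products work beside the new histones in S phase, were called lower in 41 cases with palbociclib, in all 42 with the combination and in 16 with olaparib. Of all tested genes, 31.4%, 35.3% and 10.5% were lower in the same order. The olaparib count became 0 without either DMSO library or olaparib replicate 2, and 1 without olaparib replicate 1, and in TPM 5 were lower and 1 higher. Their median log2 fold change was −0.61 with palbociclib, −0.77 with the combination and −0.15 with olaparib. GINS2, a subunit of the replicative helicase, had 26.3 and 26.4 FPKM with olaparib, 14.9 and 14.2 FPKM with palbociclib, 13.2 and 12.3 FPKM with the combination, and 31.1 and 31.0 FPKM with DMSO. RRM1, a ribonucleotide reductase subunit, PRIM1, the primase, and TYMS, thymidylate synthase, fell by 0.97, 0.96 and 0.95 with palbociclib (limma adjusted p = 3.76e-05, 6.51e-05 and 4.15e-05). Of 22 tested histone chaperones and related factors, palbociclib lowered 18 and raised 2, against the same 31.4% and 18.7% of all tested genes, with CHAF1B, a subunit of the chaperone that deposits histones at replication forks, falling by 1.00 (limma adjusted p = 2.5e-05). In TPM, and also with quantile normalisation, 15 of the chaperones were lower and 2 higher, beside the all-gene counts given above for these settings.

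**Figure D4:**
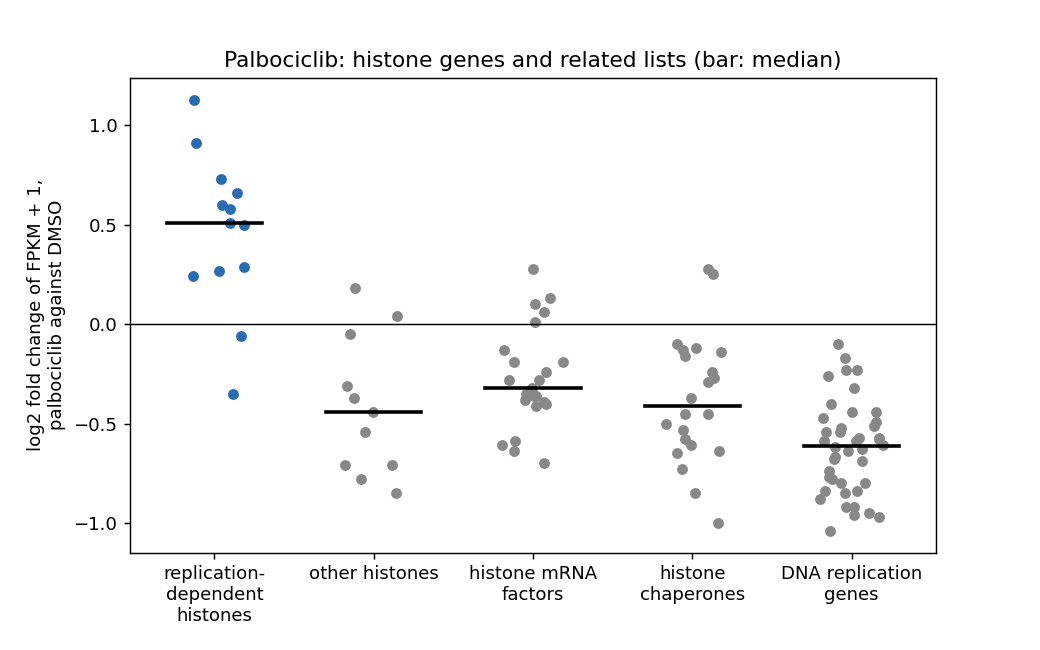
log2 fold change of FPKM + 1 with palbociclib against DMSO (vertical axis) of each tested gene, for the replication-dependent histones and 4 related lists; the black bar is the median of a list. The replication-dependent histones have a median of 0.51 and the DNA replication genes of −0.61, with the other lists between −0.44 and −0.32.

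Other histone genes, most of them transcribed outside S phase as well and with polyadenylated mRNA, were mostly lower with palbociclib. Of 15 listed, 11 were tested, and of these 8 were called lower and none higher, beside 31.4% and 18.7% of all tested genes, with a median log2 fold change of −0.44. In TPM 8 were lower and 1 higher, and with quantile normalisation 7 and 2, beside the all-gene counts given above for these settings. CENPA, the centromeric H3, fell by 0.85 (limma adjusted p = 7.86e-05), and H1F0, the linker histone H1.0, by 0.78 (adjusted p = 6.12e-05). H2AFX, which is phosphorylated at DNA breaks and held a stem-loop by the search above, had 98.3 and 107 FPKM with olaparib, 66.1 and 65.9 FPKM with palbociclib, 54.0 and 64.5 FPKM with the combination, and 107 and 110 FPKM with DMSO. It fell by 0.71 with palbociclib (adjusted p = 0.000473), as did H2AFZ by 0.71 (adjusted p = 4.19e-05). H3F3A and H3F3B, which encode the replacement histone H3.3 and were named after their values were seen, changed by 0.04 and −0.05 (limma adjusted p = 0.376 and 0.323).

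Library-wide facts bear on these values in a few ways. Reads in genes of known length ran from 18158713 to 30122425 per library, highest in DMSO, and 1 read on a gene of 1000 bases was worth 0.0308 to 0.0457 FPKM. When values were rescaled to equal totals (TPM), the share of called genes that were higher moved to 56.1% with palbociclib and 57.4% with the combination, against 37.3% and 37.8% as deposited, and the combination's median over all genes moved to 0.06 (log2), against −0.06 as deposited. Of the olaparib calls, 66.5% were higher in TPM and 28.2% as deposited. The label calls the line epithelial, but the 7 epithelial markers summed to 0.718 to 0.873 FPKM with olaparib, 1.34 to 1.40 with palbociclib, 1.52 to 1.76 with the combination and 0.577 to 0.647 with DMSO. CDH1 and KRT19 were near 0 throughout, as were PAX8, MUC16 and MECOM of the ovarian carcinoma list, while VIM, a mesenchymal marker, had 237 to 350 FPKM. The listed leukocyte, endothelial and erythroid markers each summed to 0.561 FPKM or less in every library.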

How the data were processed

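The FPKM values were deposited by the authors as one table of 31721 genes by 8 libraries. CASAVA 1.8, STAR 2.5.1b and HTSeq 0.6.0 are named without a role, per the submitters' processing notes; the sources used here do not say whether counting used strand. Symbols, classes and positions came from GENCODE v29 on GRCh38. With its exon lengths, 28635 genes (90.3%) gave whole reads within 0.01 in every library. For the other 3086 genes, 2 of them members, an exon length that gives whole reads in every library was searched. The length nearest to the annotated one was taken, and 3085 genes had such a length. The recovered reads hold both sets of genes, so those of the second set rest on a fitted length.

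Values were tested as log2(FPKM + 1) with limma 3.58.1 in R 4.3.3: genes with a mean of at least 1 FPKM (12443), 1 fit over all 8 libraries with trended empirical Bayes moderation, two-sided, Benjamini-Hochberg adjustment over all tested genes and a threshold of 0.05. The script was tested on simulated data. An exact test of 2 against 2 libraries cannot go below 0.333 and was not used. Errors are SD over 2 libraries for levels and SE for fold changes. Low levels carry counting error as well.

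Values in every library are given for the 8 most abundant members and for up to 5 called members per direction and comparison, and HIST1H2BJ and weaker members were added after their values were seen. Of the lists, NPAT, SLBP, CASP8AP2 and up to 4 of the largest palbociclib changes are named. Members and lists were chosen with earlier results of these data known. Alternatives were other pseudocounts, filters and scalings, the replicate block, voom, fits on the compared groups alone and leaving out each library.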

Additional observations from a re-analysis of the deposited data

How the results depend on the processing

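No tested histone gene changed direction past the threshold under any alternative run. HIST1H2BK, HIST1H1C, HIST1H4I, HIST1H2BD, HIST1H3H, HIST2H2BE and HIST1H2BC kept their palbociclib and combination calls against DMSO under all 19 alternatives. The count of members lower with palbociclib was 1, and became 0 with no filter, with a minimum of 0.1 FPKM, in TPM and with the replicate block, and ran from 0 to 1 when a library was left out. The count higher with olaparib was 0, and became 1 with voom on recovered reads and 3 with voom at a mean of at least 10 reads. Of all genes, 514 of 12443 were higher in the fit used above, and 1074 of 12443 and 1122 of 16257 in these voom fits. The count higher with the combination against DMSO was 9. It became 16 at a minimum of 0.1 FPKM and 15 with voom at a mean of at least 10 reads, where more members could be tested (47 and 22). All genes higher numbered 2672 of 12443 in the fit used above, and 2978 of 22097 and 3914 of 16257 under these settings. The count lower with the combination against olaparib was 0, and became 1 with quantile normalisation and ran from 0 to 1 when a library was left out, at 1 without olaparib replicate 2. Leaving out a library gave 7 to 9 members higher with palbociclib, 9 to 10 with the combination, and 7 to 9 with the combination against olaparib. The differences between replicates 1 and 2 were nearly uncorrelated between groups across genes (correlations of −0.0467 to 0.0342). Each group gives a single such difference per gene, which holds counting error, so this cannot settle whether the numbers pair samples. With the replicate block the HIST1H2BH call ended, leaving 0 members lower with palbociclib. The 47 members below 1 FPKM were left out by level, and 9 of them averaged at least 10 recovered reads. The cause of the other changes was not tested.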
